A study of Homo sapiens with 2 samples.

Results

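SCRIB, MPDZ and MAST2 are 3 genes for PDZ domain proteins that were picked by symbol from 104 genes listed after RNA immunoprecipitation and sequencing (RIP-seq) of SYNJ2BP. RIP-seq pulls a protein down with its antibody and sequences the RNA that comes with it. Endogenous SYNJ2BP was precipitated from untreated cells of HEK293T, a human line derived from embryonic kidney, and an IgG negative control was run from the same line. Each condition is represented by 1 library, called IP for the SYNJ2BP antibody and IgG for the control. The values are gene-level FPKM, read fragments corrected for the length of the transcript and the size of the library. The listed genes are those that the authors give as enriched mRNAs, by a rule that is not stated. They were thus selected on the same contrast of IP with IgG that is described here. The PDZ genes were singled out with their values known. No test accompanies the values, because a single library per condition has no replicate spread. The deposited list is not a whole library, so the sequencing depth is unknown, and markers of the cell line could not be read from it.

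PDZ domains are small folds that mostly bind the C-terminal tails of other proteins and gather them into complexes at membranes. SYNJ2BP also belongs to the PDZ family and sits on the surface of mitochondria. SCRIB is a scaffold with leucine-rich repeats and PDZ domains that sets apical-basal polarity together with the DLG and LGL proteins. MPDZ, also called MUPP1, is a scaffold made largely of PDZ domains that is found at tight junctions and is related to PATJ of the Crumbs complex. MAST2 is a microtubule-associated serine/threonine kinase that carries a PDZ domain beside its kinase domain. RIP-seq measures the mRNAs of these proteins, not the proteins.

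The FPKM of SCRIB was 1842 in IP and 6.90 in IgG, and that of MPDZ was 1010.2 in IP and 10.3 in IgG. The FPKM of MAST2 was 29.5 in IP and 1.39e-05 in IgG. All 3 mRNAs were therefore higher in the IP library, but both scaffolds were also present at a readable level in IgG, whereas the kinase was listed near 0 there. The value of MAST2 in IgG cannot be read as a level. On a transcript of 10 kb, 1 fragment would give such an FPKM only in a library of 7.22e+09 mapped fragments.

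**Figure D1:**
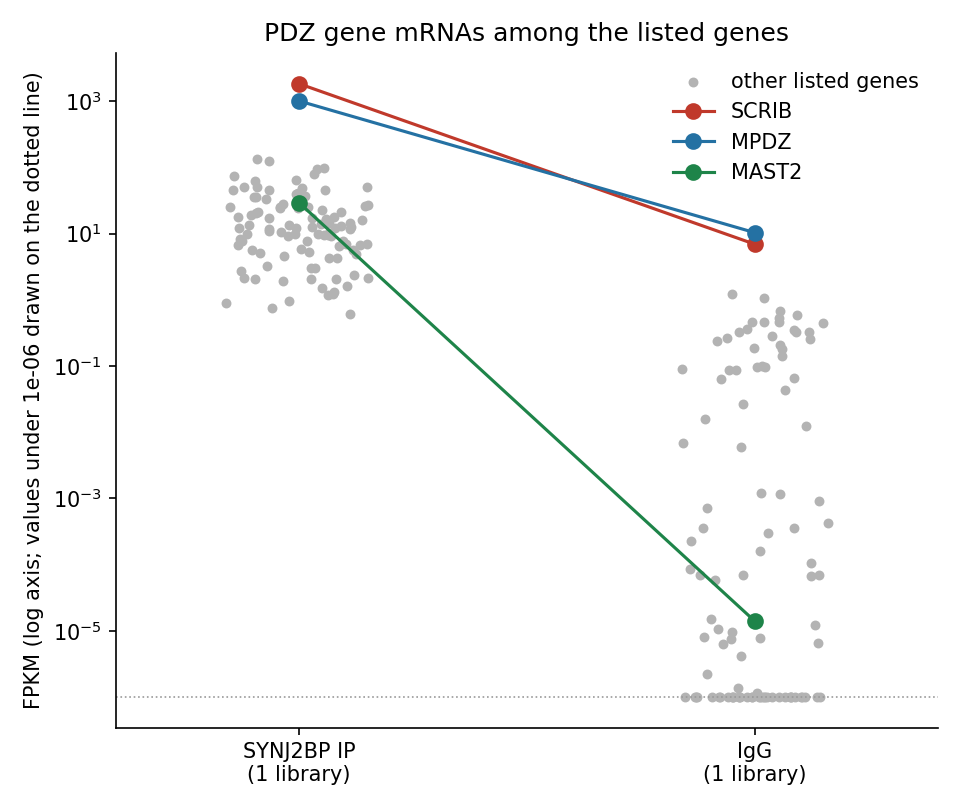
FPKM of SCRIB, MPDZ and MAST2 in the SYNJ2BP IP library (left) and the IgG library (right) on a log axis, with a line joining both values of a gene and the other 101 listed genes as grey points. SCRIB and MPDZ lie above every other listed gene in both libraries, MAST2 lies among them, and the 35 IgG values under 1e-06 are drawn on the dotted line.

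SCRIB and MPDZ held the 2 highest values of the list in both libraries, in opposite order. In IP, SCRIB was first and MPDZ second, with SCRIB 1.82 times as high as MPDZ. In IgG, MPDZ was first and SCRIB second, with MPDZ 1.496 times as high as SCRIB. The next gene down was ZNF571, a zinc finger gene, in both libraries, at 134.9 in IP and 1.24 in IgG. MPDZ, the lower of both scaffolds in IP, was 7.49 times as high as ZNF571 there. SCRIB, the lower of both in IgG, was 5.55 times as high as ZNF571 there. Whether any of these distances exceeds the spread between repeat immunoprecipitations cannot be said from single libraries.

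The sum of FPKM over the list was 5007 in IP and 27.4 in IgG. SCRIB made up 36.8% of this sum in IP and 25.2% in IgG. MPDZ made up 20.2% in IP and 37.6% in IgG. The pair thus dominated the list in both libraries, at 57.0% of the sum in IP and 62.8% in IgG. MAST2 added only 0.588% in IP. These are shares of a chosen list and not of the sequenced RNA.

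The plain ratio of IP over IgG, the measure of enrichment in the study's methods, separated the scaffolds. It was 267.2 for SCRIB and 97.9 for MPDZ, so that of SCRIB was 2.73 times that of MPDZ. A ratio was read as a size only where IgG reached 0.01 FPKM, which held for 36 of the 104 listed genes, and the median ratio of those was 112.5. Among these 36 genes SCRIB ranked 10 and MPDZ ranked 26, although they ranked 1 and 2 by FPKM in IP. Their place at the top of the list is thus one of level in both libraries, and they did not lead these genes by plain ratio. The ratios above that of SCRIB came with lower IgG values, from 0.0125 FPKM for GPR98 to 0.262 for ZNF260, against 6.90 for SCRIB. The order therefore depends on how low IgG values are treated. With 1 added to both values, SCRIB ranked 1 and MPDZ 3 of the 104 genes by log2 difference. The lowest ratio on the list was 84.8, so it holds no gene without enrichment to set them against. No ratio is given for MAST2, which has no readable IgG level.

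**Figure D2:**
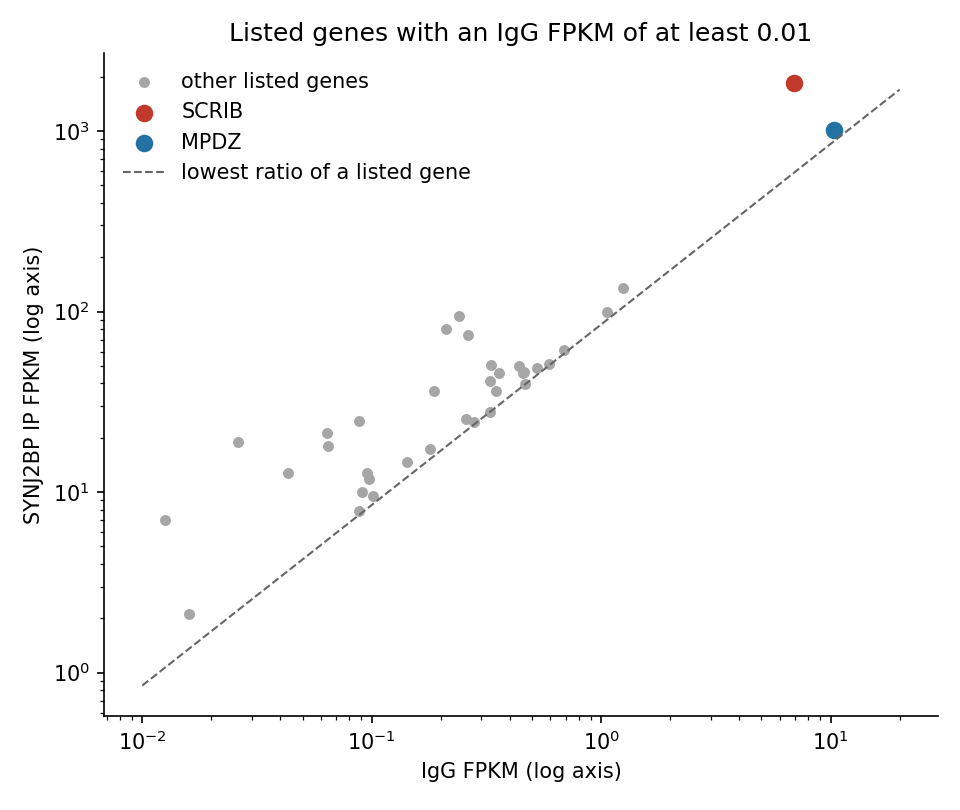
SYNJ2BP IP FPKM against IgG FPKM, both on log axes, for the 36 listed genes that reached 0.01 FPKM in IgG. The dashed line marks the lowest ratio of a listed gene, 84.8, and SCRIB and MPDZ stand at the upper right, away from the other points, with MPDZ near the dashed line and SCRIB above it.

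MAST2 lay in the upper part of the list but not at its top. It ranked 24 of 104 by FPKM in IP, between PEA15, a phosphoprotein that binds ERK kinases, at 32.8, and ATP5E, a subunit of ATP synthase, at 27.7. Its level in IP was 2.42 times the median of the other 101 listed genes, 12.1. SCRIB was 62.6 times and MPDZ 34.3 times as high as MAST2 in IP. Of the 68 genes near 0 in IgG (under 0.01 FPKM), whose median in IP was 8.03, MAST2 ranked 5.

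The log2 difference, log2(FPKM + 1) in IP minus the same in IgG, was 7.87 for SCRIB, 6.48 for MPDZ and 4.93 for MAST2. On this scale, which shrinks the difference where FPKM is low, 3 of the 3 PDZ genes were at least 4-fold higher in IP, beside 83.7% of the listed genes (87 of 104). Since the list was chosen on this contrast, nothing is read from that count. The median log2 difference was 6.48 for the PDZ genes and 3.72 for the whole list, but with 0.01 added in place of 1 the PDZ median lay below that of the list, at 8.06 for the PDZ genes and 8.43 for the list. The order of the PDZ genes depended on the amount added before taking logarithms. With 0.01 added, the log2 difference was 8.06 for SCRIB, 6.61 for MPDZ and 11.5 for MAST2, and SCRIB ranked 60, MPDZ 85 and MAST2 5 of the 104 genes. With 1 added, their ranks were 1 for SCRIB, 3 for MPDZ and 22 for MAST2. The log2 differences of SCRIB and MPDZ hardly moved between these settings, while that of MAST2 passed both.

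**Figure D3:**
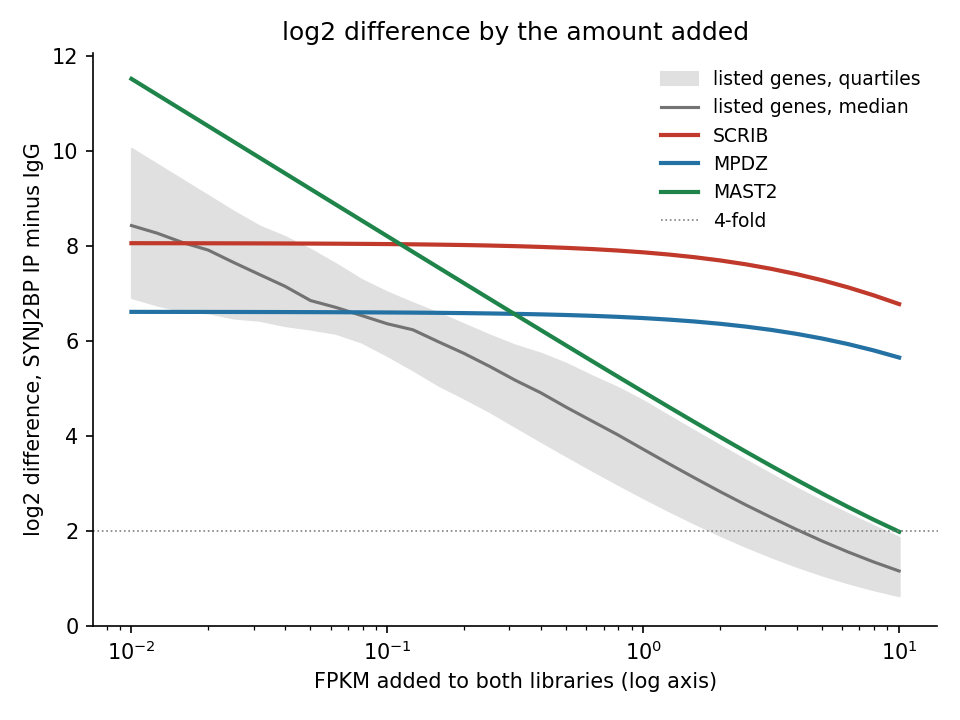
The log2 difference, SYNJ2BP IP minus IgG, against the FPKM added to both libraries (log axis), for SCRIB, MPDZ and MAST2, with the median and quartiles of the 104 listed genes in grey and 4-fold as a dotted line. The lines of SCRIB and MPDZ are nearly flat up to 1 FPKM, and that of MAST2 passes through 11.5 at 0.01 and 1.98 at 10.

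By the Euclidean distance of log2(FPKM + 1) over both libraries, SCRIB and MPDZ were each other's nearest listed gene, at a distance of 1.01. The next nearest were much farther off. ZNF571 lay at 4.18 from SCRIB and 3.72 from MPDZ. NDUFS7, which encodes part of respiratory complex I and stood at 99.5 FPKM in IP and 1.06 in IgG, lay at 4.62 from SCRIB and 4.14 from MPDZ. MAST2, in contrast, had close neighbours, namely RP11-1035H13.3 at 0.13, PEA15 at 0.15 and RP11-196G11.1 at 0.16. These neighbours were near 0 in IgG as MAST2 was, and reached 26.8, 32.8 and 26.3 FPKM in IP. The distances rest on 2 libraries and describe levels alone.

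The partners of the PDZ proteins were looked for in lists written with the values known. Of the 8 genes of the Scribble module (SCRIB with the DLG and LLGL genes), SCRIB alone was listed. The Crumbs complex list held 9 genes, with MPDZ counted in as a relative of PATJ, and MPDZ alone was listed. MAST2 was the only listed gene of the 5 MAST kinase genes, which include MASTL, a relative without a PDZ domain. None of the 8 genes of the Par complex and none of 6 genes for proteins known to bind SYNJ2BP, such as RRBP1, its partner in the endoplasmic reticulum, was listed. Genes outside the list were not analysed here, so no level is known for them in either library. Of 23 genes for cell junction proteins, 2 were listed. This list, too, was written with the listed genes known, so nothing is read from that count. OCLN, which encodes occludin of the tight junction, stood at 22.4 FPKM in IP and near 0 in IgG. PVRL1, which encodes the adhesion protein nectin 1, stood at 17.3 FPKM in IP and 0.179 in IgG.

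Among the 4 listed serine/threonine protein kinases, MAST2 had the highest FPKM in IP. CAMK1D, a calcium/calmodulin-dependent kinase, stood at 21.2 FPKM in IP and 0.0638 in IgG. CSNK1G1, a casein kinase, reached 5.001 FPKM and MAPK11, a p38 kinase, 3.005 FPKM in IP, and both were near 0 in IgG. The log2 difference was 4.93 for MAST2, 4.39 for CAMK1D, 2.59 for CSNK1G1 and 2.002 for MAPK11, which lay just above 4-fold.

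The loci are as the authors' table lists them on hg19. SCRIB (ENSG00000180900) is listed on chromosome 8 from 144873089 to 144897549, MPDZ (ENSG00000107186) on chromosome 9 from 13105702 to 13279589 and MAST2 (ENSG00000086015) on chromosome 1 from 46252658 to 46501796. The listed locus spans 24.5 kb for SCRIB, 173.9 kb for MPDZ and 249.1 kb for MAST2, ranks 78, 21 and 10 of the 104 by length, so the 2 highest FPKM values came from loci of different size. No other listed gene overlaps any of them. In the RefSeq annotation of GRCh38.p14, a later build that served for names, lengths and neighbours, all 3 are protein-coding. The listed span was 0.984 times the RefSeq gene for SCRIB, 0.999 times for MPDZ and 1.07 times for MAST2. RefSeq holds 2 transcripts of SCRIB, 57 of MPDZ and 34 of MAST2, predicted ones included, and the sources used here do not say which of them the gene-level FPKM counts. The miRNA gene MIR937 lies within the span of SCRIB, a pseudogene (TMA16P2) and a long noncoding RNA gene (LOC105378694) overlap MAST2, and no annotated gene overlaps MPDZ. The coding neighbours of SCRIB are close, with IQANK1 at 0.28 kb and PUF60 at 0.571 kb, whereas the nearest coding gene to MPDZ is at 282.6 kb and that to MAST2 at 4.02 kb.

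The table marks 11 listed genes as tested by CLIP (crosslinking immunoprecipitation), and 0 of the 3 PDZ genes carry the mark. The paper picked these 11 as hits related to mitochondria and reports that CLIP enriched all 11. The missing mark is thus not a negative result for the PDZ genes. RNA from before the immunoprecipitation was not analysed here. A high level of SCRIB and MPDZ mRNA in the cells and a preference of the SYNJ2BP pulldown for them therefore cannot be told apart. Both genes had the highest values in IgG as well as in IP, and the part of unspecific recovery in their IP values was not tested.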

How the data were processed

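The authors' deposited table gives gene-level FPKM (fragments corrected for transcript length and library size) in 1 SYNJ2BP IP and 1 IgG library for a list of genes, with the authors' fold change, which was not used, and a mark of 1 or 0 for CLIP-tested genes. The RNA was depleted of rRNA and made into stranded libraries. Tools named in the submitters' processing notes, without roles, are HISAT2 2.0.4, cutadapt 1.9.3, Cuffdiff 2.2.1 and Cufflinks, with hg19 as build. The sources used here state neither the annotation, nor the strand setting of the counting, nor the rule of listing. FPKM depends on the transcript length assumed. Depth is unknown, so no counting interval is given.

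Log2 differences were taken after adding 1 to both values. Alternatives were 0.1, 0.01 and 10 added, fold limits of 2 and 8, IP minimums of 1 and 5 FPKM, no clone-based or readthrough names, ratios with 1, 0.1 or 0.01 added, a narrower base for the sum, and ranks after subtracting IgG. The members and lists were chosen with earlier results of these data known. Named were the members, the 3 genes nearest to each, their neighbours in the order and the listed genes of the lists. A planned profile search for PDZ domains was not run because no protein sequences were used, and gene functions are background. Python 3.11.15, numpy 2.4.6, pandas 2.3.3 and matplotlib 3.10.9 were used, and the formula was tested on simulated data.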

Additional observations from a re-analysis of the deposited data

How the results depend on the processing

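No paired analysis was possible because a condition holds a single library, and no replicate could be left out. With 0.1, 0.01 or 10 added in place of 1, the log2 difference was 8.04, 8.06 or 6.78 for SCRIB, 6.60, 6.61 or 5.65 for MPDZ, and 8.21, 11.5 or 1.98 for MAST2. The median of the PDZ genes was 8.04, 8.06 or 5.65, against 6.36, 8.43 or 1.15 for the whole list, so with 0.01 added it lay below the list median instead of above it. With 10 added, MAST2 lay just under 4-fold, so that 2 of the 3 PDZ genes were counted, beside 23 of the 104 listed genes. The count was 3 under the other pseudocounts, fold limits and filters tried. With 0.1 or 0.01 added, all 104 listed genes were counted, so the count does not set the PDZ genes apart there. At the other fold limits and filters the count over the list was not taken, and nothing is read from the 3. The share of SCRIB and MPDZ in the summed IP FPKM, 57.0%, was also 57.0% over the genes that reached 1 FPKM in IP. It was 57.6% over those that reached 5, 59.0% when clone-based and readthrough names were dropped, and 68.7% over the 36 genes that reached 0.01 FPKM in IgG. The rank of MAST2 by IP FPKM was 24, and 23 when those names were dropped. SCRIB and MPDZ ranked 1 and 2 under each filter and after subtracting the IgG FPKM. With 1, 0.1 or 0.01 added to both values, the plain ratio was 233.5, 263.4 or 266.8 for SCRIB and 89.4, 97.0 or 97.8 for MPDZ. The profile search for PDZ domains and its alternatives were not run. The sequencing depth is unknown, and the limits it sets were not assessed.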
